A study of Mus musculus with 19 samples.

Results

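The genes of the AP-1, MAF and immediate early families described here were 10 of the 31053 genes listed in a table of liver RNA counts: *Fos*, *Jun*, *Junb*, *Jund*, *Atf3*, *Maff*, *Mafg*, *Egr1*, *Klf6* and *Ier2*. They were chosen by family name with earlier results of these libraries known, so that the counts in all 3 comparisons below may have entered the choice. Their differences between groups are therefore given as descriptions, with standard errors and without p-values. Livers came from male C57BL/6 mice (strain label C57BL6J), and the age of 6 to 8 weeks in the labels is not that at sacrifice, since the treatments below took longer. Vehicle-treated mice received PBS (5 libraries). The other two groups received thioacetamide (TAA), a hepatotoxin used to cause fibrosis, for 12 weeks and were injected after 10 weeks with an AAV8 vector, either expressing GFP (AAV-GFP, 7 libraries) or with a combination of vectors for miR-34b and miR-34c (AAV-miR-34b/c, 7 libraries). They were sacrificed 4 weeks after the injection. Expression from the vectors was under the TBG promoter, which is specific for hepatocytes. No group received TAA without a vector or a vector without TAA, so that TAA and vector cannot be told apart against vehicle.

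AP-1 is a dimer of basic leucine zipper proteins. FOS proteins must pair with a JUN protein to bind DNA, whereas JUN proteins and ATF3 can also form dimers of their own kind. The small MAF proteins, MAFF and MAFG among them, have no activation domain and act as partners of factors such as NRF2 or, as dimers of small MAFs, as repressors. Immediate early genes are transcribed within minutes of a stimulus without new protein synthesis, and in liver they are known for their induction by partial hepatectomy, toxic injury and the handling of tissue.

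The promoters of 8 of the 10 genes were found in the RefSeq table (GRCm38.p6), as windows from 250 bases before to 50 bases after a transcription start, while those of *Egr1* and *Ier2* were not. The windows were searched on both strands for the AP-1 site TGACTCA, the cAMP response element TGACGTCA, the partial MAF recognition sequence TGACNNNGC, the EGR site GCGGGGGCG, the TATA sequence TATAAA and the CArG box of serum response factor. No window of these 8 genes held TGACTCA, GCGGGGGCG or a CArG box, which 5.2%, 2.91% and 1.63% of all 32851 windows held. The *Jund* window (chr8:70697489-70697788) ends before the annotated span of the gene begins (70698949), so that it does not cover the start of that span. TATAAA was in the windows of *Fos* and *Junb*, as in 13.6% of all windows. TGACGTCA was in 1 of the 3 windows of *Maff*, as in 1.79% of all windows. TGACNNNGC was in another window of *Maff* and in those of *Mafg* and *Klf6*, as in 12.4% of all windows. A match describes these letters and is not evidence of binding. The search found exact letters only, and sequence outside the windows was not searched. A window without a match is therefore not evidence that the gene lacks such a site.

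Below are the windows of *Fos*, the partner of the JUN proteins, and of both small MAF genes, of which *Maff* and not *Mafg* was called between the TAA groups. Each is written 5′ to 3′ on the strand of the gene, with the match in capitals. The *Fos* window lies at chr12:85473640-85473939 (plus strand) and shows TATAAA from position -33. The *Maff* window lies at chr15:79347270-79347569 (plus strand) and shows TGACGTCA from position -29. The *Mafg* window lies at chr11:120633498-120633797 (minus strand) and shows TGACNNNGC, read on the other strand, from position -222.
Fos: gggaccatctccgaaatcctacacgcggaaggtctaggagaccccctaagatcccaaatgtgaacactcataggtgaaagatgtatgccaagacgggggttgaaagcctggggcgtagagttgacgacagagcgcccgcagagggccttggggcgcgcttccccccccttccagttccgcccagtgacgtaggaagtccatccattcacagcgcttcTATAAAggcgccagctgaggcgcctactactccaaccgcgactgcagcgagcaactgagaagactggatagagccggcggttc
Maff: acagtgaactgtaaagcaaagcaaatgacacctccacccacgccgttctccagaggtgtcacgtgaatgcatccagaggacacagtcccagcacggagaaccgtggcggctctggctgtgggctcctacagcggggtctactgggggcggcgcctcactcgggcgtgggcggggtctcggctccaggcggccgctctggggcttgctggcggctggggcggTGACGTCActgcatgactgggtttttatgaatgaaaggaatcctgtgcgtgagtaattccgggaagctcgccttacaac
Mafg: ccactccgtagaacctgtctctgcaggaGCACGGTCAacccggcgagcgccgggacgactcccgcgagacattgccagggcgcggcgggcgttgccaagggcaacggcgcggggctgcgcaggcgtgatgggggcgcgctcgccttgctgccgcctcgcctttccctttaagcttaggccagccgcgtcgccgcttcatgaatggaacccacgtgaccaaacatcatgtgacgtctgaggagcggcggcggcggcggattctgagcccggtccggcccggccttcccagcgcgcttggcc

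The vectors expressed miR-34b and miR-34c, and the 3′ UTRs of the 10 genes were searched for the complement of their seed, CACTGCC. Of 21849 genes with an annotated 3′ UTR, 3295 (15.1%) held CACTGCC in the longest one, and of the 10 genes *Fos* alone did. Its match starts at base 43 of the 3′ UTR. The mature sequence of miR-34b-5p (RefSeq, GRCm38.p6) is given with its seed in capitals and the *Fos* site with its match in capitals.
miR-34b-5p: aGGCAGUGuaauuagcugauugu
Fos site: agacgtgcCACTGCCcgagctgg

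Total counts on genes were 2214073 to 5208405 per library (median 2991704), with group medians of 2858900 for vehicle, 3116304 for AAV-GFP and 3040202 for AAV-miR-34b/c. Mitochondrial genes took a median of 3.80% of the counts in vehicle, 7.85% in AAV-GFP and 8.28% in AAV-miR-34b/c, but AAV-GFP replicates 5, 6 and 7 (4.83% to 5.50%) and AAV-miR-34b/c replicates 1 and 2 (3.71% and 3.73%) were within or below the vehicle range of 3.73% to 5.65%. *Gm42418*, a transcript that overlaps ribosomal RNA, took a median of 4.45%, 3.37% and 2.08% in the same order of groups. AAV-GFP replicates 6 and 7 and AAV-miR-34b/c replicates 1 and 2 stood apart, with the highest mean coefficients of variation to the libraries of their own group (0.332 to 0.360, where the other libraries had 0.213 to 0.319). The summed level of 8 hepatocyte markers overlapped between groups (67831 to 82764, 66035 to 75915 and 56402 to 89038 CPM), although *Hnf4a* and *Serpina1c* of these markers were called higher than in vehicle in both TAA groups (*Hnf4a* by 0.86 and 1.21, *Serpina1c* by 0.64 and 0.91 on the log2 scale). *Alb* and *Apoa1* made up most of the hepatocyte sum, so that it shows little of the other markers. The summed level of 6 neutrophil markers was 16.9 to 80.8 CPM in vehicle, 13.8 to 73.6 CPM in AAV-GFP and 62.6 to 1926 CPM in AAV-miR-34b/c. The part of these values in the differences below was not tested. Within groups, 6 pairs of libraries stood out as close, with a coefficient of variation above counting noise from 0.0813 to 0.170, while the 46 remaining pairs had 0.214 to 0.473. The labels do not say whether the libraries of a pair came from separate mice, so that p-values measure the spread between these libraries, and calls lost with each pair summed are named or counted for the 10 genes and for each list below. In liver RNA as a whole, fewer cells of a type and less RNA per cell cannot be told apart.

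Against vehicle, 9 of the 10 genes were called higher in AAV-GFP-injected mice by edgeR's quasi-likelihood test across all genes (Benjamini-Hochberg adjusted p under 0.05), and none was called lower. *Egr1* had the largest difference among them, 18.5-fold, and *Klf6* the smallest of those called, 2.04-fold. Of all 9522 genes tested, 12.7% were called in either direction and 7.54% were called higher, and since this contrast may have entered the choice of the genes, nothing is read from their share. Their median log2 fold change was 1.75, and that of all genes tested was -0.01. The lowest AAV-GFP library was above the highest vehicle library for *Fos*, *Jun*, *Junb*, *Maff* and *Egr1*, while 2.59% of all genes separated in this direction. *Fos*, *Atf3* and *Maff* passed the count filter through their AAV-GFP libraries, so that these counts are descriptions. Without AAV-GFP replicates 6 and 7 the same 9 genes were called, and 2880 of all 9273 genes tested.

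Between the TAA groups, 9 of the 10 genes passed the count filter, and *Maff* and *Jun* (2 of 9) were called lower in AAV-miR-34b/c-injected mice. Of all 9252 genes tested, 3.36% were called in either direction and 1.42% were called lower. *Maff* was the single gene of the 10 whose groups did not overlap, where 0.616% of all genes were lower without overlap, but it passed the count filter through its AAV-GFP libraries. The median log2 fold change of the 9 genes was -0.93, and that of all genes tested was -0.01. The 7 genes not called had log2 fold changes between -1.53 (*Fos*) and 0.07 (*Jund*). Besides *Maff* and *Jun*, *Fos*, *Egr1* and *Atf3* were called without AAV-GFP replicates 6 and 7. These replicates held the 2 lowest AAV-GFP levels of *Fos*, *Jun*, *Junb*, *Jund*, *Egr1* and *Klf6*, of which *Junb*, *Jund* and *Klf6* were not called. Without AAV-miR-34b/c replicates 1 and 2, *Ier2* and *Atf3* were called besides *Maff* and *Jun*. Of all genes tested, 397 of 9537 and 720 of 9543 were called in these fits, against 311 of 9252 with all libraries.

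In AAV-miR-34b/c against vehicle, 7 of the 10 genes passed the count filter, and *Jun*, *Junb*, *Jund*, *Mafg* and *Egr1* were called higher. Of all 9290 genes tested, 21.9% were called in either direction and 12.2% were called higher. *Junb* and *Jund* separated the groups, as did 3.96% of all genes in this direction. The median log2 fold change of the 7 genes was 1.18, and that of all genes tested was 0.02. The 3 comparisons share libraries, so that their values are set side by side below without a test of their relation. The same 5 genes were called without AAV-miR-34b/c replicates 1 and 2.

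**Figure D1:**
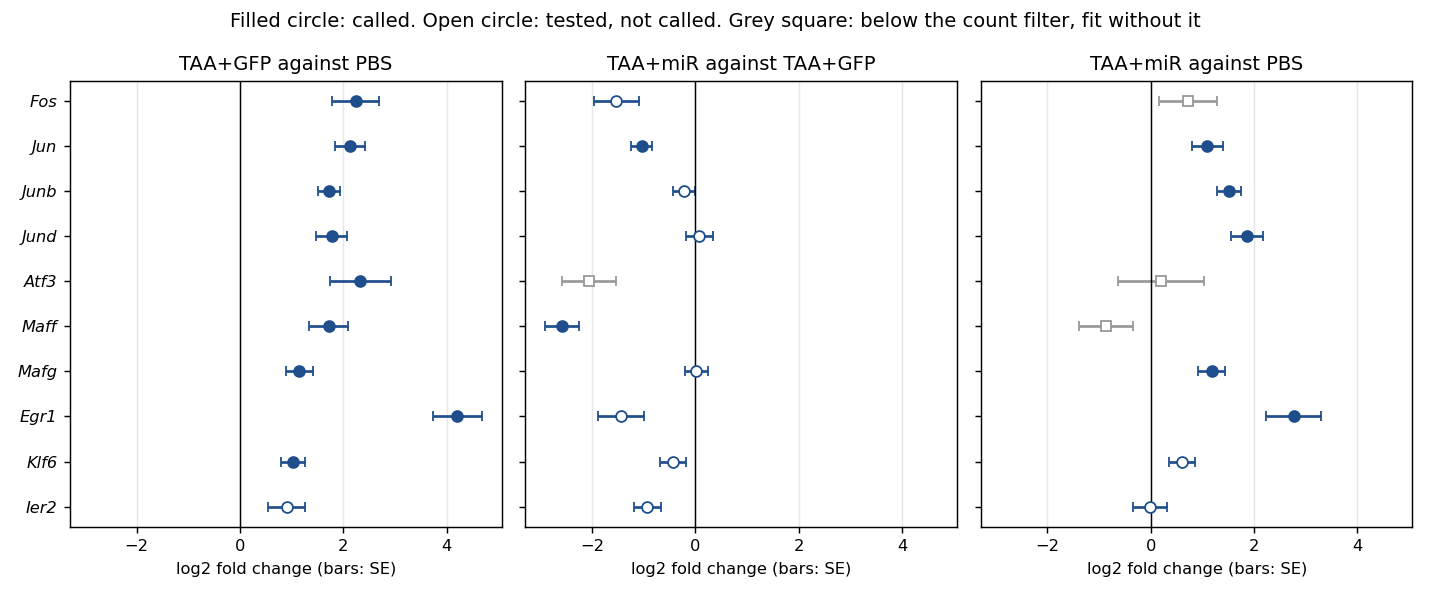
The log2 fold change of each gene (x axis) is plotted with its standard error in the 3 comparisons, as a filled circle where the gene was called, an open circle where it was tested and not called, and a grey square where its counts were below the filter and the value comes from a fit without it. All 10 values lie above 0 in the comparison of AAV-GFP with vehicle, and *Junb*, *Jund* and *Mafg* lie near 0 between the TAA groups.

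*Fos* (ENSMUSG00000021250, chr12:85473890-85477273, GRCm38), the first described FOS subunit, had few counts, 2 to 8 per library in vehicle, 14 to 54 in AAV-GFP and 1 to 25 in AAV-miR-34b/c. The 5 vehicle libraries had 0.693, 1.32, 3.56, 1.70 and 3.24 CPM, where CPM are counts divided by the library size after TMM normalization. AAV-GFP libraries ranged from 4.57 to 16.4 CPM (median 6.15) and AAV-miR-34b/c libraries from 0.343 to 7.08 CPM (median 2.51). All AAV-GFP libraries were above vehicle, and AAV-GFP libraries 1, 2 and 3 stood above the other 4 of their group. The fitted log2 fold change was 2.24 (SE 0.45) between AAV-GFP and vehicle, where *Fos* passed the count filter through its AAV-GFP libraries, so that this value depends on very low counts. It was -1.53 (SE 0.43) between the TAA groups and was not called, although 5 of 7 AAV-miR-34b/c libraries were below all AAV-GFP libraries. This difference was called without AAV-GFP replicate 6 or without AAV-miR-34b/c replicate 3. Too few counts were left to test *Fos* between AAV-miR-34b/c and vehicle.

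*Jun* (ENSMUSG00000052684, chr4:95049034-95052222, minus strand), the JUN subunit with the strongest transactivation, had 41 to 90 counts in vehicle, 157 to 480 in AAV-GFP and 98 to 230 in AAV-miR-34b/c. Its levels in vehicle were 15.3, 17.5, 31.1, 9.97 and 36.5 CPM. They were 49.8 to 130 CPM (median 101) in AAV-GFP and 33.6 to 67.9 CPM (median 42.5) in AAV-miR-34b/c. The order of the group levels was thus vehicle, AAV-miR-34b/c and AAV-GFP, with overlap between the first and second and between the second and the third. The log2 fold change was 2.13 (SE 0.29) between AAV-GFP and vehicle, -1.04 (SE 0.21) between the TAA groups and 1.10 (SE 0.29) between AAV-miR-34b/c and vehicle, and each was called. With each library left out in turn, the difference between the TAA groups ranged from -1.15 to -0.95 and was called in each of the 14 fits, but with close pairs summed neither this call nor that of AAV-miR-34b/c against vehicle held. The annotation places *Junos* on the other strand, and the strand setting of the counting is not given in the sources used here, so that reads of these genes might not be separated.

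*Junb* (ENSMUSG00000052837, chr8:84974484-84978718, minus strand), a JUN subunit with weaker activity as a dimer of its own kind, was higher in both TAA groups. Vehicle libraries had 24.96, 39.0, 31.6, 24.8 and 39.3 CPM. AAV-GFP libraries ranged from 54.3 to 141 CPM (median 105) and AAV-miR-34b/c libraries from 50.05 to 128 CPM (median 94.2). No library of a TAA group reached down to the vehicle range, and the TAA groups overlapped almost entirely. The log2 fold changes were 1.72 (SE 0.22) and 1.52 (SE 0.23) against vehicle and -0.21 (SE 0.22) between the TAA groups. Both calls against vehicle were made under each of the 10 alternatives and in every fit without 1 library.

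*Jund* (ENSMUSG00000071076, chr8:70698949-70700616, plus strand), the JUN gene known for its steady expression in resting cells, had like levels in both TAA groups. Its levels in vehicle were 33.3, 40.7, 91.2, 29.4 and 61.6 CPM. AAV-GFP libraries had 87.2 to 243 CPM (median 198) and AAV-miR-34b/c libraries 100 to 314 CPM (median 178), the highest in replicate 6. The vehicle library 3 lay above the lowest AAV-GFP library and below all AAV-miR-34b/c libraries. The log2 fold changes were 1.77 (SE 0.30) and 1.86 (SE 0.32) against vehicle and 0.07 (SE 0.26) between the TAA groups. Both *Junb* and *Jund* overlap a gene on the other strand, *Prdx2* and *Gm11175*.

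*Atf3* (ENSMUSG00000026628, chr1:191170296-191218039, minus strand), a stress-induced member of the ATF family, was the gene nearest to the detection limit. It had 3, 0, 8, 1 and 3 counts in the vehicle libraries, 6 to 42 in AAV-GFP libraries and 0 to 10 in AAV-miR-34b/c libraries. Of the AAV-GFP libraries, 5 of 7 were above all vehicle libraries. *Atf3* passed the count filter through its AAV-GFP libraries, so that its fitted log2 fold change of 2.33 (SE 0.60) depends on very low counts. It was called, but not without vehicle replicate 4 and not with close pairs summed. The filter left *Atf3* out between the TAA groups, and a fit without the filter gave -2.05 (SE 0.52). It was called there in this fit and in a fit of all 3 groups, but not with close pairs summed. Between AAV-miR-34b/c and vehicle it was not tested either, and no library of AAV-miR-34b/c was outside the vehicle range.

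*Maff* (ENSMUSG00000042622, chr15:79346621-79359076, plus strand), a small MAF gene that is induced by stress and cytokines, was the one of the 10 genes whose levels did not overlap between the TAA groups. Its counts were 12, 14, 2, 6 and 17 in vehicle libraries, 22 to 75 in AAV-GFP and 2 to 16 in AAV-miR-34b/c. In CPM these were 4.16, 4.63, 0.890, 1.46 and 6.89 in vehicle, 7.29 to 16.5 (median 11.1) in AAV-GFP and 0.798 to 3.25 (median 1.75) in AAV-miR-34b/c. Every AAV-GFP library was thus above every library of both other groups, and 5 of 7 AAV-miR-34b/c libraries fell within the vehicle range with the other 2 below it. Between AAV-GFP and vehicle the fitted log2 fold change was 1.72 (SE 0.38). Between the TAA groups it was -2.58 (SE 0.33). Both were called, also with close pairs summed. In both comparisons *Maff* passed the count filter through its AAV-GFP libraries and had low counts in the other group, so that these values and calls are given as descriptions. Against vehicle, counts in AAV-miR-34b/c were too low for the filter, and a fit without it gave -0.87 (SE 0.52).

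*Mafg* (ENSMUSG00000051510, chr11:120625117-120633600, minus strand), a small MAF gene that is expressed in most tissues, did not differ in the same way. Vehicle libraries had 23.6, 42.3, 12.9, 23.1 and 25.1 CPM, AAV-GFP libraries 34.3 to 87.8 CPM (median 53.0) and AAV-miR-34b/c libraries 32.7 to 71.6 CPM (median 63.3). Of the 7 libraries of each TAA group, 5 were above all vehicle libraries. The log2 fold changes were 1.15 (SE 0.27) and 1.18 (SE 0.26) against vehicle and 0.02 (SE 0.22) between the TAA groups. Both calls against vehicle were lost with close pairs summed. The annotation places *Sirt7* on the same strand over part of the gene, and reads in the shared part could be counted for either or for none.

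**Figure D2:**
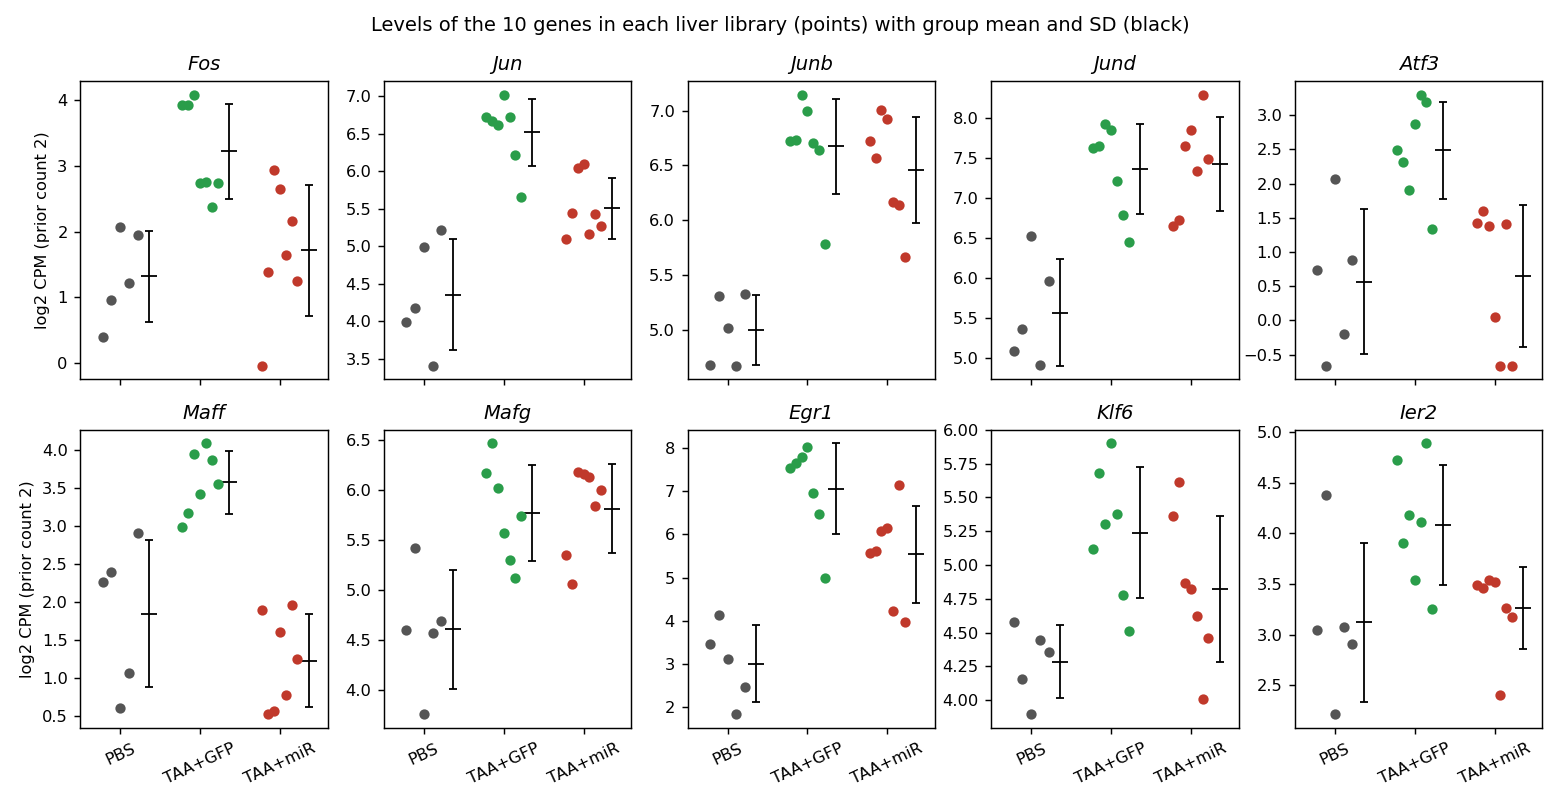
Each point is the log2 CPM (prior count 2) of a gene in 1 library, by group, with the group mean and SD in black, in a panel for each of the 10 genes with its own y axis. *Maff* in AAV-GFP lies above all other libraries, while *Junb*, *Jund* and *Mafg* lie at like levels in both TAA groups.

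*Egr1* (ENSMUSG00000038418, chr18:34859823-34864984, plus strand), a zinc finger immediate early gene, had the largest difference of the 10 genes against vehicle. Its levels in vehicle were 10.4, 16.9, 8.01, 2.92 and 4.87 CPM, from 12 to 51 counts. AAV-GFP libraries ranged from 31.1 to 260 CPM (median 184), lowest in replicate 7, and AAV-miR-34b/c libraries from 15.05 to 142 CPM (median 48.3), highest in replicate 6. The log2 fold change was 4.21 (SE 0.48) between AAV-GFP and vehicle, the fifth highest of all genes tested. It was 2.77 (SE 0.53) between AAV-miR-34b/c and vehicle, where 6 of 7 libraries were above the vehicle range. Between the TAA groups it was -1.44 (SE 0.45), which was not called, and it was called without AAV-GFP replicate 7, at the low end of its group, or without AAV-miR-34b/c replicate 6, at the high end of its group.

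*Klf6* (ENSMUSG00000000078, chr13:5861482-5870394, plus strand), a Krüppel-like factor first described as a gene induced in activated stellate cells, had 14.2 to 23.2 CPM in vehicle, 22.2 to 59.1 CPM in AAV-GFP and 15.5 to 48.3 CPM in AAV-miR-34b/c. The log2 fold change was 1.03 (SE 0.23) between AAV-GFP and vehicle, called in all 12 fits without 1 library but not with close pairs summed. It was -0.43 (SE 0.25) between the TAA groups and 0.61 (SE 0.26) between AAV-miR-34b/c and vehicle, and neither was called. The highest AAV-miR-34b/c libraries were replicates 1 and 2, a close pair, with 40.4 and 48.3 CPM. *Ier2* (ENSMUSG00000053560, chr8:84661331-84662852, minus strand), a nuclear immediate early gene of less known function, had 7.63, 20.2, 4.00, 7.78 and 6.89 CPM in vehicle, 8.88 to 29.0 CPM (median 16.7) in AAV-GFP and 4.66 to 11.04 CPM (median 10.4) in AAV-miR-34b/c. It was the gene of the 10 not called between AAV-GFP and vehicle, at a log2 fold change of 0.90 (SE 0.35), and it was called without vehicle replicate 2, the highest of its group, or without AAV-GFP replicate 7, the lowest of its group. Its log2 fold change was -0.93 (SE 0.26) between the TAA groups and -0.02 (SE 0.34) between AAV-miR-34b/c and vehicle.

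The spread between libraries of a group differed among the genes. The biological coefficient of variation in a fit over all 3 groups was 0.283 for the median of 9928 genes. *Atf3*, *Egr1* and *Fos* lay at percentiles 98.3, 97.5 and 95.0 of this measure, *Maff*, *Ier2*, *Jund*, *Jun*, *Mafg* and *Klf6* between 56.2 and 79.7, and *Junb* at 46.6. Deviations from the group means over the 19 libraries gave 45 pairs of genes with a median Pearson r of 0.21, and 34 of the 45 were above 0. The highest were *Jun* with *Jund* (0.75), *Fos* with *Jund* (0.73) and *Jun* with *Junb* (0.68), and the lowest was *Atf3* with *Mafg* (-0.68). These values share libraries, depth and the close pairs, and they describe these libraries without a test.

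**Figure D3:**
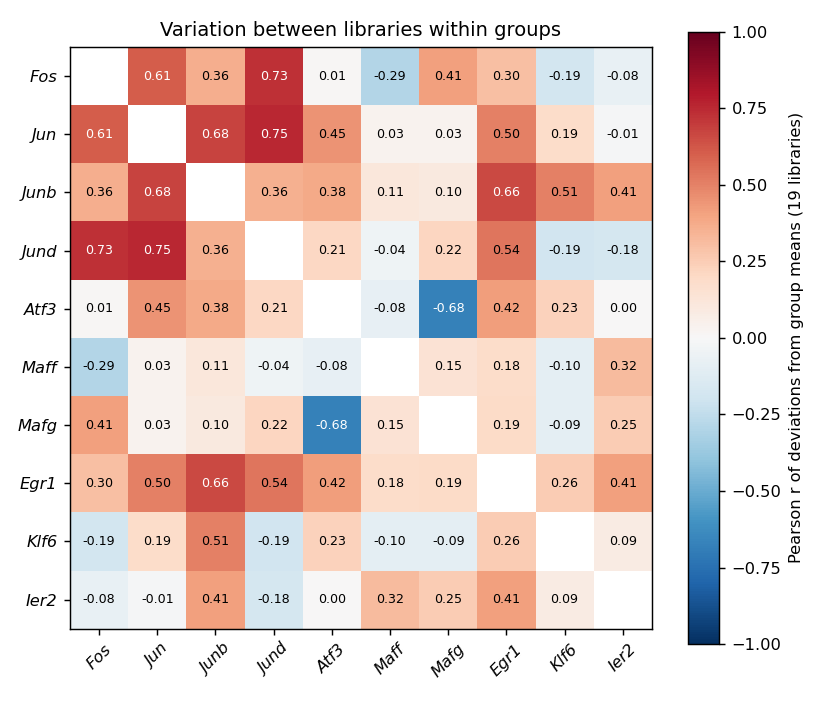
Pearson r of the deviations of log2 CPM from the group means is given for each pair of the 10 genes over 19 libraries, from -1 (blue) to 1 (red). *Fos*, *Jun* and *Jund* form a block of values from 0.61 to 0.75, and *Maff* has no value above 0.32 with another of the genes.

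For 8 pairs of the genes, correlations were tested within each TAA group of 7 libraries, which gave 16 tests. None passed the threshold after adjustment, and 2 had an unadjusted exact permutation p under 0.05. With close pairs averaged, 1 of the 16 passed, that of *Jun* and *Klf6* in AAV-GFP (r 0.97 over 6 samples). In AAV-miR-34b/c this left 4 samples, too few for an exact permutation p to be small, so that its tests could hardly pass. *Jun* and *Klf6* in AAV-GFP had a Pearson r of 0.90 (two-sided exact permutation p = 0.00317, adjusted p = 0.0508) and a Spearman rho of 0.75 (exact permutation p = 0.0663, adjusted p = 0.444), and r was 0.67 without the 2 libraries farthest from the median of *Jun*. *Jun* and *Junb* in AAV-GFP had an r of 0.87 (exact permutation p = 0.0312, adjusted p = 0.249) and a rho of 0.54 (exact permutation p = 0.236, adjusted p = 0.474), and r was 0.11 without these 2 libraries, so that the relation rested on them. In AAV-miR-34b/c, the r of *Jun* and *Klf6* was -0.02.

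The genes whose deviations were most like those of each gene were ranked among 9417 genes (9418 for *Atf3*) over the same 19 libraries. They were *Flii*, *Ube2l3* and *Klf3* for *Fos* (r 0.86 to 0.84), *Atoh8*, *Bace1* and *Irf9* for *Jun* (0.84 to 0.83), *Them6*, *Frmd4b* and *Caskin2* for *Junb* (0.79 to 0.76) and *Got2*, *Cbs* and *Os9* for *Jund* (0.94 to 0.92). They were *Ddit4*, *Igfbp1* and *Cep85l* for *Atf3* (0.83 to 0.81), *Itga6*, *Tmem167b* and *Mettl3* for *Maff* (0.74 to 0.69) and *mt-Cytb*, *Zfp316* and *Ino80d* for *Mafg* (0.91 to 0.87). For the last 3 genes they included *Raph1* and *C3* (*Egr1*, both 0.83), *Tmem123*, *Cd44* and *Trf* (*Klf6*, 0.87 to 0.84) and *Kctd9*, *mt-Co1* and *Snx21* (*Ier2*, 0.79 to 0.76). A mitochondrial transcript, *mt-Cytb* or *mt-Co1*, was thus among the 3 genes most like *Mafg* and *Ier2*, in libraries whose mitochondrial share ranged from 3.71% to 10.8%, and the part of this share was not tested.

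The lists of other genes and of cell markers were also chosen with earlier results of these libraries known. The adjusted p-values printed for their genes are therefore descriptions, and these genes are not independent support for the differences above. Of 40 other immediate early genes, 29 were tested between AAV-GFP and vehicle. In these livers, 11 were called higher (*Nr4a1*, *Btg2*, *Zfp36l1*, *Dusp6*, *Ier3*, *Trib1*, *Socs3*, *Klf9*, *Nfkbia*, *Dusp1* and *Csrnp1*) and 1, *Cebpd*, was called lower. Their median log2 fold change was 0.70. *Nr4a1*, an orphan nuclear receptor of the immediate early class, had 0 to 4 counts per library in vehicle and 15 to 56 in AAV-GFP. It passed the count filter through its AAV-GFP libraries alone, so that its fitted log2 fold change of 4.41 (SE 0.57) depends on very low counts and is given as a description. *Btg2*, an antiproliferative gene, was higher by 2.22 (SE 0.31, edgeR adjusted p = 0.000128), *Dusp6*, a phosphatase of ERK, by 1.80 (SE 0.29, edgeR adjusted p = 0.000639) and *Zfp36l1*, whose protein binds AU-rich mRNA, by 1.51 (SE 0.23, edgeR adjusted p = 0.000382). With close pairs summed, 5 of these genes were called, and without vehicle replicate 4, 7 were.

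Between the TAA groups, 27 of these 40 genes were tested, of which 4 were called lower and none higher in AAV-miR-34b/c. The median was -0.44, and 20 of the 27 had a negative value. *Nr4a1* had 0 to 5 counts per library in AAV-miR-34b/c, without overlap with AAV-GFP, and its fitted log2 fold change of -3.48 (SE 0.44) has the same limit. *Dusp6* was lower by 1.40 (SE 0.23, edgeR adjusted p = 0.00187), *Dusp1*, a phosphatase of the MAP kinases, by 0.91 (SE 0.21, edgeR adjusted p = 0.0212) and *Nfkbia*, the inhibitor of NF-κB, by 0.77 (SE 0.15, edgeR adjusted p = 0.00653). With close pairs summed, *Nr4a1* alone was called, so that the calls of *Dusp6*, *Dusp1* and *Nfkbia* were lost, while 9 genes were called with normalization by library size alone. Against vehicle, 26 were tested in AAV-miR-34b/c, 6 were called higher (*Zfp36l1*, *Btg2*, *Trib1*, *Ier3*, *Socs3* and *Klf9*) and *Sgk1* was called lower. Here *Btg2* was higher by 1.78 (SE 0.37, edgeR adjusted p = 0.00383), but with close pairs summed *Ier3* alone of these 7 was called. *Ier3* had at most 9 counts per vehicle library and passed the filter through the TAA groups, so that its calls are descriptions.

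**Figure D4:**
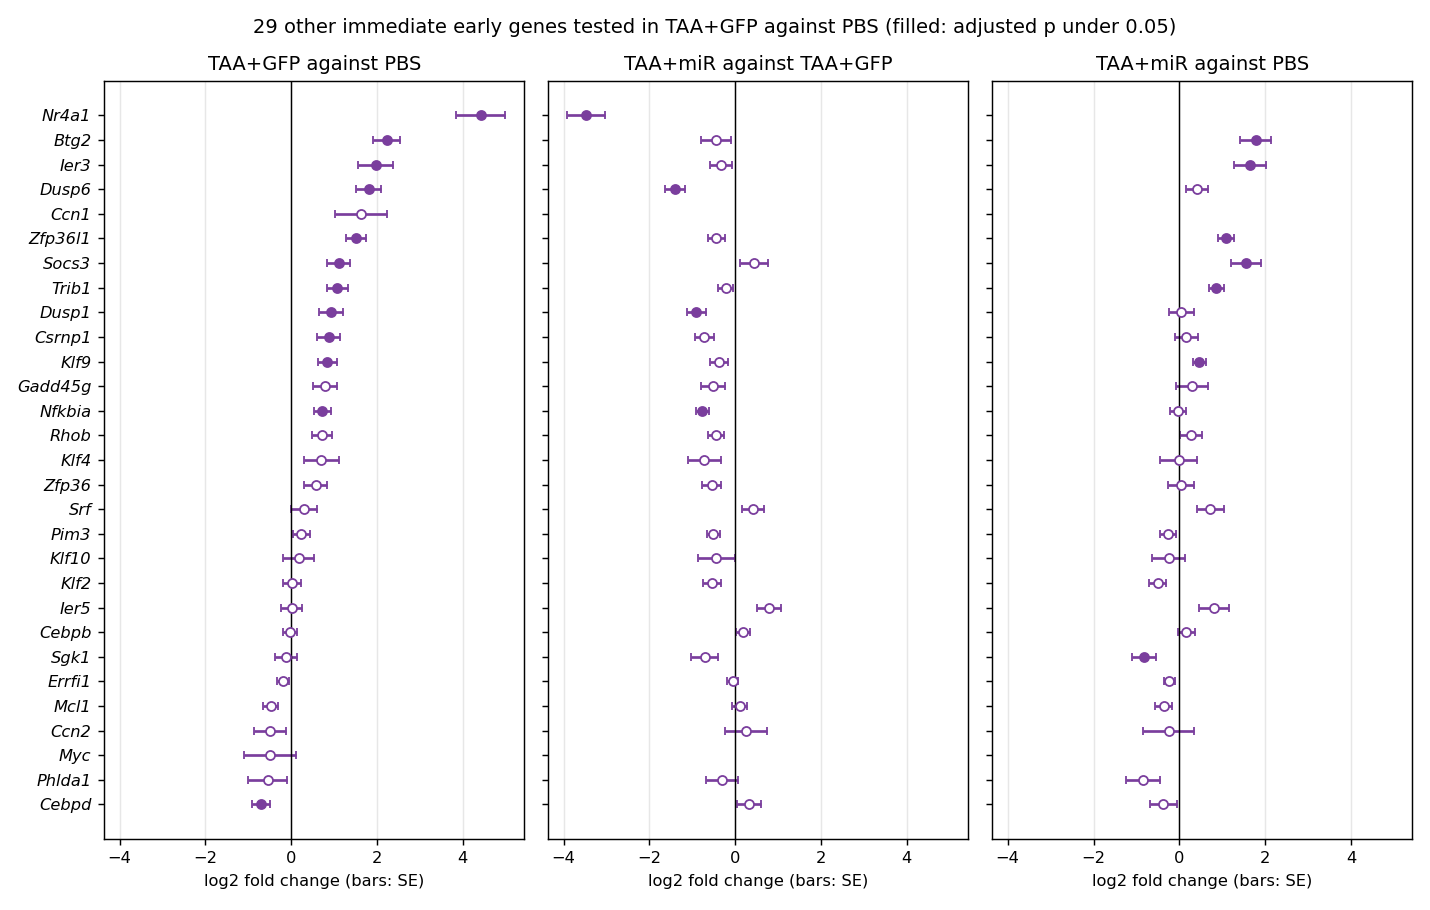
The log2 fold changes with standard errors of 29 other immediate early genes, ordered by the comparison of AAV-GFP with vehicle, are plotted for the 3 comparisons, filled where edgeR's adjusted p was under 0.05. *Nr4a1* is at 4.41 in the first panel and at -3.48 in the second, where it and *Dusp6*, *Dusp1* and *Nfkbia* are filled, while *Btg2* and *Zfp36l1* are filled in the first and the last.

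Of 9 other genes of AP-1 (FOS, BATF and ATF genes and *Jdp2*), 3 were tested in each comparison. *Fosl2*, a FOS-related subunit, was called higher against vehicle in AAV-GFP (log2 fold change 1.51, SE 0.32, edgeR adjusted p = 0.00568) and in AAV-miR-34b/c (1.67, SE 0.30, adjusted p = 0.00168), and it differed by 0.14 (SE 0.28) between the TAA groups (edgeR adjusted p = 0.873). *Fosb* had 0 counts in all vehicle libraries, 0 to 30 in AAV-GFP and at most 1 in AAV-miR-34b/c, and *Fosl1* had no count in any library. Among 12 other genes of the MAF and NRF2 families, 8 were tested in each comparison. *Nfe2l1*, a CNC factor that pairs with small MAFs, was called higher against vehicle in AAV-GFP (0.97, SE 0.28, edgeR adjusted p = 0.0301) and AAV-miR-34b/c (0.91, SE 0.24, adjusted p = 0.0146), and *Keap1*, the inhibitor of NRF2, in AAV-miR-34b/c (0.58, SE 0.18, adjusted p = 0.0275). None of the 8 was called between the TAA groups. The small MAF gene *Mafk* had log2 fold changes of 0.52 (SE 0.35) and 0.56 (SE 0.36) against vehicle and 0.03 (SE 0.26) between the TAA groups, none called. With close pairs summed, the call of *Fosl2* in AAV-miR-34b/c held, while its call in AAV-GFP and those of *Nfe2l1* and *Keap1* did not.

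Of 9 target genes of MAF and NRF2 dimers, 7, 8 and 7 were tested in the 3 comparisons, and *Gclc*, which encodes the catalytic subunit of glutamate-cysteine ligase, was the one called in the first and second. It was higher by 1.53 in AAV-GFP than in vehicle (SE 0.16, edgeR adjusted p = 6.92e-06, 134 to 158 CPM in vehicle and 292 to 499 CPM in AAV-GFP). It was lower by 1.31 in AAV-miR-34b/c than in AAV-GFP (SE 0.14, edgeR adjusted p = 2.97e-05, 145 to 214 CPM in AAV-miR-34b/c). Of 12 target genes of AP-1, 3, 4 and 3 were tested in the 3 comparisons, and *Spp1*, osteopontin, was the one called, higher in AAV-GFP than in vehicle by 1.31 (SE 0.29, edgeR adjusted p = 0.00795). Of 17 kinases and factors upstream of these genes, all tested, *Map2k7*, *Map2k2* and *Mapk3* were called higher in AAV-GFP than in vehicle. *Map2k7*, the kinase that activates JNK, had a log2 fold change of 1.26 (SE 0.27, edgeR adjusted p = 0.00638). None of the 17 was called between the TAA groups. Against vehicle, *Map2k2*, *Fbxw7* and *Map2k7* were called higher in AAV-miR-34b/c, and 1 of the 17 was called lower. Both calls of *Gclc* held with close pairs summed, and those of *Spp1* and of these upstream genes did not.

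Among 9 genes of the integrated stress response, *Atf5* and *Ppp1r15a* were called higher and *Asns* lower in AAV-GFP than in vehicle, of 8 tested. *Ppp1r15a*, which encodes the stress-induced subunit of the eIF2α phosphatase, was higher by 1.52 (SE 0.33, edgeR adjusted p = 0.00688). It was lower by 1.02 in AAV-miR-34b/c than in AAV-GFP (SE 0.22, edgeR adjusted p = 0.0134), without overlap of the groups in either comparison. In AAV-miR-34b/c, *Atf5* and *Chac1* were called higher than in vehicle. Of 11 heat shock genes, 10 were tested, and 3, 0 and 5 of them were called higher in the 3 comparisons, with *Hsp90aa1* at 0.85 (SE 0.21, edgeR adjusted p = 0.0139) and 1.47 (SE 0.21, adjusted p = 0.000272) against vehicle. Of 6 other KLF genes that are not among the immediate early genes above, *Klf12*, *Klf3* and *Klf13* were called higher against vehicle in both TAA groups, and none was called between the TAA groups. Both calls of *Atf5* held with close pairs summed and those of *Ppp1r15a*, *Asns* and *Chac1* did not, and of the heat shock genes and these KLF genes those of *Hsp90aa1*, *Klf12* and *Klf13* in AAV-miR-34b/c against vehicle held and the others did not.

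Markers of other cells moved as well. Of 9 stellate cell markers, *Col1a1*, *Pdgfrb* and *Col1a2* were called higher in AAV-GFP than in vehicle, and *Col1a1* and *Col3a1* were called lower in AAV-miR-34b/c than in AAV-GFP. *Col1a1* was higher by 2.42 (SE 0.36, edgeR adjusted p = 0.000298) and then fell by 1.92 (SE 0.29, adjusted p = 0.000898). The summed level of the 9 stellate markers was 364 to 558 CPM in vehicle, 405 to 526 CPM in AAV-GFP and 263 to 482 CPM in AAV-miR-34b/c. *Dcn* made up most of this sum, with medians of 391, 318 and 246 CPM in the same order. The sum therefore shows little of the collagen genes. Of 8 macrophage markers, *Vsig4*, *Clec4f* and *Adgre1* were called lower in AAV-GFP than in vehicle, *Adgre1* was called lower in AAV-miR-34b/c than in vehicle and none was called between the TAA groups. The 3 neutrophil markers tested, *S100a8*, *S100a9* and *Retnlg*, were called higher in AAV-miR-34b/c than in AAV-GFP, by 3.97 to 4.36, and than in vehicle, by 3.87 to 4.47. Of 8 endothelial markers, 7 were tested in each comparison. *Lyve1* was called higher in AAV-miR-34b/c than in AAV-GFP (1.06, SE 0.17, edgeR adjusted p = 0.0013), where 4 of the 7 values were above 0 and 3 below, and against vehicle *Lyve1* was called higher and *Cdh5* lower in AAV-miR-34b/c (1.46, SE 0.17, and -1.25, SE 0.26). Of 6 cholangiocyte markers 2 were tested in each comparison, and *Spp1* (the AP-1 target above) and *Sox9* were called higher against vehicle, in AAV-GFP and AAV-miR-34b/c respectively. With close pairs summed, the calls of *Col1a1*, *Col3a1*, *Lyve1*, *Cdh5* and, between the TAA groups, of all 3 neutrophil markers held. Against vehicle those of *Retnlg* and *Hnf4a* in AAV-miR-34b/c held, while the other marker calls did not. *Retnlg* and *Pdgfrb* had fewer than 10 counts in each vehicle library and passed the filter through the groups where they were high, so that their calls are descriptions. None of the 8 T and B cell markers had enough counts to be tested. The part of these cells in the levels of the 10 genes was not tested.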

How the data were processed

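Liver RNA of 19 libraries was prepared with a 3′ mRNA kit and sequenced single-end. The deposited values are counts per gene, not normalized. The authors' processing notes name STAR and the build mm10, while tool versions, annotation release and strand setting are not given in the sources used here. The table lists 31053 genes, of which 30934 received a symbol from GENCODE annotation of GRCm38.

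Each pair of groups was fitted alone with edgeR 4.0.16 in R 4.3.3 (TMM, filterByExpr with minimum count 10 and total 15, quasi-likelihood test). P-values were adjusted by Benjamini-Hochberg over all genes tested, at 0.05. In counts simulated for AAV-GFP against vehicle, 97% of 4-fold and 60% of 2-fold changes were recovered. Between the TAA groups these rates were 95% and 65%, and in the last comparison they were 94% and 51%. Such rates were not measured for the 10 genes, of which *Atf3*, *Egr1* and *Fos* varied more between libraries than most genes. How often a change in the 10 genes would be called is therefore not known from the simulation. Log2 CPM used a prior count of 2. The alternatives were other size factors, filters, DESeq2 1.42.0, limma 3.58.1 (voom with sample quality weights), a joint fit of all groups, a replicate block (libraries whose number occurs in both groups), close pairs (coefficient of variation under 0.2) summed and each library left out. The 10 genes and all lists were chosen with earlier results of these data known. Named besides them are at most 4 called genes of each list and comparison with the smallest adjusted p and the 3 genes most like each of the 10. Genes named outside this rule to complete a list, *Fosb*, *Fosl1*, *Mafk*, *Dcn*, *Alb* and *Apoa1* were chosen after their values were seen. Windows and miRNA sequences are from RefSeq (GRCm38.p6). Some genes that this rule names are not reported here.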

Additional observations from a re-analysis of the deposited data

Results flagged for a closer look

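The log2 CPM of the 10 genes and the total count were examined in each of the 3 groups for a library far from the rest by Dixon's criterion. Of these 33 sets of libraries, 3 held such a library, where chance gives 1.65. AAV-GFP replicate 7 had a *Junb* log2 CPM of 5.78, below 6.64 in the library nearest to it. AAV-miR-34b/c replicate 5 had an *Ier2* log2 CPM of 2.40, below 3.17 in the library nearest to it. AAV-GFP replicate 5 had 4383805 counts in total, above 3239809 in the library nearest to it.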

How the results depend on the processing

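The direction of each called difference of the 10 genes was the same under every alternative and without each library, while the counts of calls moved. With close pairs summed, 227, 87 and 331 genes were called in AAV-GFP against vehicle, AAV-miR-34b/c against AAV-GFP and AAV-miR-34b/c against vehicle. In the same order, 6, 1 and 3 of the 10 genes were called, and 5, 1 and 1 of the other immediate early genes. Fewer samples enter that fit. With limma-voom and sample quality weights together, 2687, 813 and 3839 genes were called, 6 of the 10 genes and 10 of the other immediate early genes between the TAA groups. Between the TAA groups, library size alone gave 624 genes, 5 of the 10 and 9 of the others. For the same groups DESeq2 gave 542 genes and 4 of the 10, and the fit of all 3 groups gave 437 genes and 4 of the 10. *Fos*, *Egr1*, *Klf6*, *Ier2* and *Atf3* (which passed the filter in the fit of all 3 groups) were the genes of the 10 gained there in at least 1 of these settings, and the cause was not tested.

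Same-numbered libraries deviated together (r over 0.1) in 2 of 5, 2 of 7 and 1 of 5 pairs. Their r ranged from -0.21 to 0.40, -0.45 to 0.31 and -0.38 to 0.46 in the same order. No regular pairing by replicate number was thus seen, but so few pairs cannot exclude it. With a replicate block, 3088, 142 and 922 genes were called. The block fits against vehicle also left out replicates 6 and 7 of the TAA group, which have no vehicle library of their number. On the same libraries of AAV-GFP and vehicle, the fit with no block called 2880 genes.

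Some libraries were removed after the data were seen. Without AAV-GFP replicates 6 and 7, 2880 genes were called against vehicle. Between the TAA groups 397 genes were then called, with 5 of the 10 genes and 7 of the other immediate early genes. Without AAV-miR-34b/c replicates 1 and 2, 720 and 3878 genes were called against AAV-GFP and vehicle, 4 of the 10 genes and 8 of the others between the TAA groups and 11 of the others against vehicle. With each library left out in turn, 689 (without vehicle replicate 4) to 1859 (without AAV-GFP replicate 6) genes were called in AAV-GFP against vehicle, with 7 (without vehicle replicate 4) to 13 other immediate early genes. In AAV-miR-34b/c against vehicle, 1267 (without vehicle replicate 4) to 2695 genes were called. Between the TAA groups 209 (without AAV-GFP replicate 1) to 344 (without AAV-GFP replicate 4) genes were called, with 2 to 5 of the 10 genes. Without AAV-GFP replicate 7, 5 of the 10 genes and 295 of all genes were called. In the correlations, 1 of 16 tests passed the threshold with close pairs averaged, where the tests in AAV-miR-34b/c had 4 samples and could hardly pass. Low counts, at most 8 per vehicle library for *Fos* and *Atf3* and at most 17 for *Maff*, limit the precision of those values.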
